A study of Mus musculus with 4 samples.

Results

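Pyruvate oxidation and the tricarboxylic acid (TCA) cycle were followed through 35 genes in late 2-cell mouse embryos, after injection of an siRNA against Uqcc3. The genes were chosen by name, and their rows were taken by gene symbol from the expression tables of 4 libraries. Each symbol matched 1 row of the 47445 gene identifiers. Of the 35 genes, 32 reached 1 FPKM (fragments per kilobase of transcript, scaled to library size) in at least 2 of the 4 libraries and entered the test, which covered 12390 genes. Pdk2, Pdk4 and Pcx did not pass this filter.

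The series asked what loss of Uqcc3, an assembly factor of respiratory complex III, does in early embryos. All embryos were C57BL/6N, came from 8 week-old females and were collected at the late 2-cell stage if their morphology was normal. The Uqcc3 siRNA group has 2 libraries of embryos injected at 8 hpi, as the labels write it, with 5 µM of 1 siRNA. The control group has 2 libraries. Per the treatment protocol the controls received a negative-control siRNA, likewise 5 µM at 8 hpi, whereas their treatment label reads "none". How many embryos went into a library is not stated in the labels, and nothing says that replicates came from separate mice. P-values therefore measure only the spread among 4 libraries, which may be technical. The endings of the sample titles differ between the groups, and if they mark a batch, batch and group cannot be told apart.

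Pyruvate is the main fuel of the cleaving mouse embryo, which uses little glucose before compaction. Pyruvate enters the mitochondrion through the carrier formed by Mpc1 and Mpc2, and the pyruvate dehydrogenase complex turns it into acetyl-CoA. The TCA cycle oxidises acetyl-CoA and hands electrons to the respiratory chain as NADH and, at succinate dehydrogenase, directly to ubiquinone, which complex III reoxidises. The malate-aspartate shuttle, built from cytosolic and mitochondrial malate dehydrogenases and aspartate aminotransferases, carries cytosolic NADH equivalents into the mitochondrion.

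The 4 libraries were not alike. Here and below, a run of 4 values gives control replicates 1 and 2, then siRNA replicates 1 and 2. Depth implied by the width of the authors' FPKM bounds was about 16700000, 18900000, 11700000 and 11800000 fragments when scaled up from long genes with 1 transcript. Summed over the bounds of all genes it was 6500000, 6900000, 3900000 and 4200000, and both estimates put the siRNA libraries below the controls. Genes at 1 FPKM or more numbered 11818 to 12202 in the controls and siRNA replicate 1, and 9771 in siRNA replicate 2. In that last library the 13 mitochondrially encoded mRNAs made up 3.41% of summed FPKM, against 9.98% to 17.9% in the others, and Rn18s-rs5, a gene of ribosomal RNA, reached 14506 FPKM, against 183 to 1023. Uqcc3, the siRNA target, stood at 147.5 and 210.9 FPKM in the control libraries, against 23.7 and 19.8 in the siRNA libraries, or 12.1% of the control mean. Of 10 fixed 2-cell markers, 9 were at 1 FPKM or more in every library, as were all 10 oocyte markers. The summed level of the 2-cell markers was 1273 and 1679 FPKM without and 908 and 510.2 with the Uqcc3 siRNA. That of the oocyte markers was likewise lower with it, at 1787, 2103, 1700 and 1318 FPKM. So was the summed FPKM of all genes, at 682974, 695428, 596011 and 436400. Of 10 cumulus and granulosa markers, 0 reached 1 FPKM in every library, their sum was 8.66, 16.1, 12.0 and 1.26 FPKM, and Amh and Fshr were listed at 0 throughout. The 8 sperm markers summed to 10.7, 22.4, 25.8 and 0.245 FPKM and the 8 blood markers to 33.5, 34.5, 29.5 and 9.17 FPKM. Akap4, Hbb-bs and Alas2 were listed at 0 throughout. Yet 3 cumulus and granulosa, 5 sperm and 4 blood markers reached 1 FPKM in at least 1 library. The highest of each list were Tnfaip6, Pgk2 and Hba-a1. Tnfaip6 stood at 2.91, 14.1, 3.60 and 0.602 FPKM and Pgk2 at 3.42, 17.15, 8.185 and 0.0542 FPKM. Hba-a1 stood at 9.26, 18.8, 9.755 and 0 FPKM. All 3 sums were lowest in siRNA replicate 2, and the part of other cells' RNA in the results was not tested. FPKM is relative to all fragments of a library, so fewer embryos, less RNA per embryo and a changed mix of transcripts cannot be told apart.

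In control embryos the pathway was dominated by a few transcripts. Per length, 7 genes averaged at least 100 FPKM, 11 lay from 10 to 100, 14 from 1 to 10, and 3 under 1. The 5 highest genes of each control library held 67.3% and 68.6% of the summed FPKM of the 35. Mpc2, a subunit of the pyruvate carrier, stood at 378 and 477 FPKM in the controls. Mdh2, the mitochondrial malate dehydrogenase that closes the cycle, stood at 414 and 330 FPKM, so the order of the leading pair differed between the controls. Below them lay Ogdh, Mpc1, Idh3g, Pdha1 and Pdhb, whose control values overlapped along that order. Of 34 neighbouring pairs in the order of control means, only 7 had control values that did not overlap, among them Mdh2 over Ogdh, Pdhb over Mdh1 and Got1 over Pdk3. The 35 genes together made up 0.260% and 0.297% of all FPKM in the controls and 0.194% and 0.209% with siRNA.

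**Figure D1:**
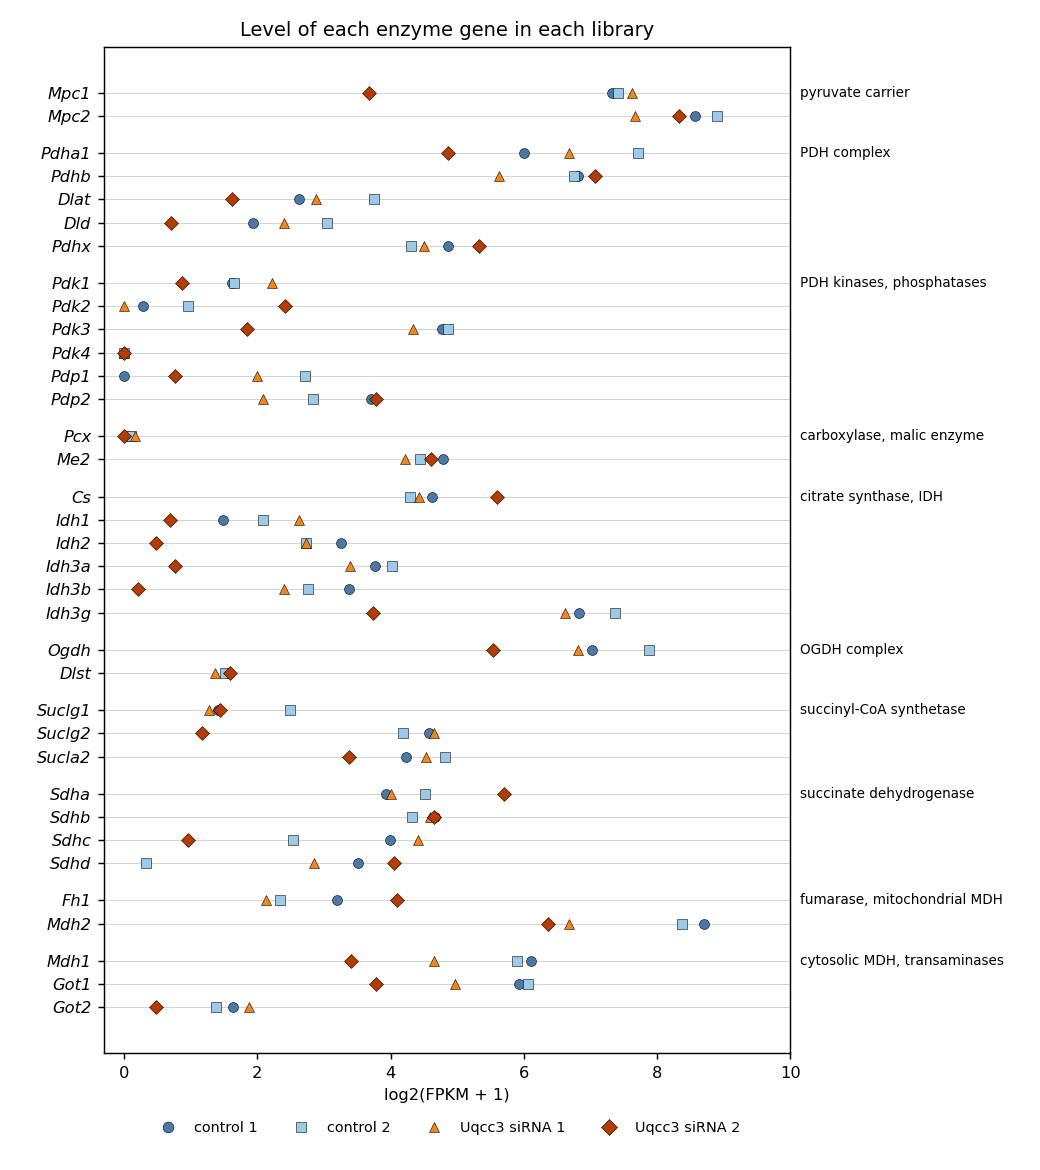
Level of the 35 genes as log2(FPKM + 1) on the horizontal axis, 1 row per gene grouped by role, with 1 marker per library (circle and square, controls; triangle and diamond, Uqcc3 siRNA). The diamond of siRNA replicate 2 lies far to the left for Mpc1, Pdk3, Suclg2 and the 3 Idh3 genes, while both siRNA markers lie to the left of both controls for Mdh2, Mdh1 and Got1.

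With Uqcc3 siRNA, none of the 32 tested genes passed the test. The 3 with the smallest unadjusted p were the malate dehydrogenase genes Mdh2 and Mdh1 and the aminotransferase gene Got1. Mdh2, Mdh1 and Got1 were each lower than both controls in both siRNA libraries, at 24.5%, 26.9% and 34.1% of the control mean. The 3 subunit genes of NAD-dependent isocitrate dehydrogenase were lower too, mostly through siRNA replicate 2. The 4 subunit genes of succinate dehydrogenase did not share a pattern. On FPKM in siRNA replicate 2, Sdhb lay between the controls and Sdha and Sdhd above both. Sdhc lay below both there, at 9.66% of the control mean.

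In limma, 0 of 32 genes had an adjusted p under 0.05, as was the case for 0% of all tested genes, and the smallest adjusted p among the 32 was 0.745. An unadjusted p under 0.05 was found for 2 of them, or 6.25%, against 5.96% of all genes. Of the 32, 9 (28.1%) had both siRNA values below both controls, against 30.0% of all tested genes. For 0 genes were both siRNA values above, against 8.60%. These shares of low p-values and of genes below both controls were near the background. A negative log2 fold change was found for 25 of the 32 (78.1%), against 64.1% of all genes. The median log2 difference of the 32 was -0.58, and that of all genes was -0.39.

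The siRNA libraries disagreed on the size of the difference and, for genes such as Mpc1, Pdhb and Fh1, on its direction. In siRNA replicate 1, 15 of 32 genes (46.9%) lay below both controls, against 48.3% of all genes, and 6 (18.8%) above, against 20.6%. In siRNA replicate 2, 20 (62.5%) lay below, against 50.5%, and 8 (25.0%) above, against 32.0%. The median difference from the control mean was -0.24 and -1.12 in siRNA replicates 1 and 2, where all genes had medians of -0.30 and -0.57. Genes of the 35 under 1 FPKM numbered 4 in each control, then 3 and 11 in the siRNA libraries. Part of the lower values therefore belongs to the library with the fewest detected genes, and the part of that library's quality in them was not tested. With siRNA replicate 2 alone against the controls, 8 of the 32 genes (25.0%) passed in limma, all lower, against 11.9% of all genes: Mpc1, Pdk3, Idh3a, Idh3g, Suclg2, Mdh2, Mdh1 and Got1. With siRNA replicate 1 alone against the controls, the log2 fold changes of these 8 genes ran from -1.85 for Mdh2 to 0.27 for Suclg2.

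**Figure D2:**
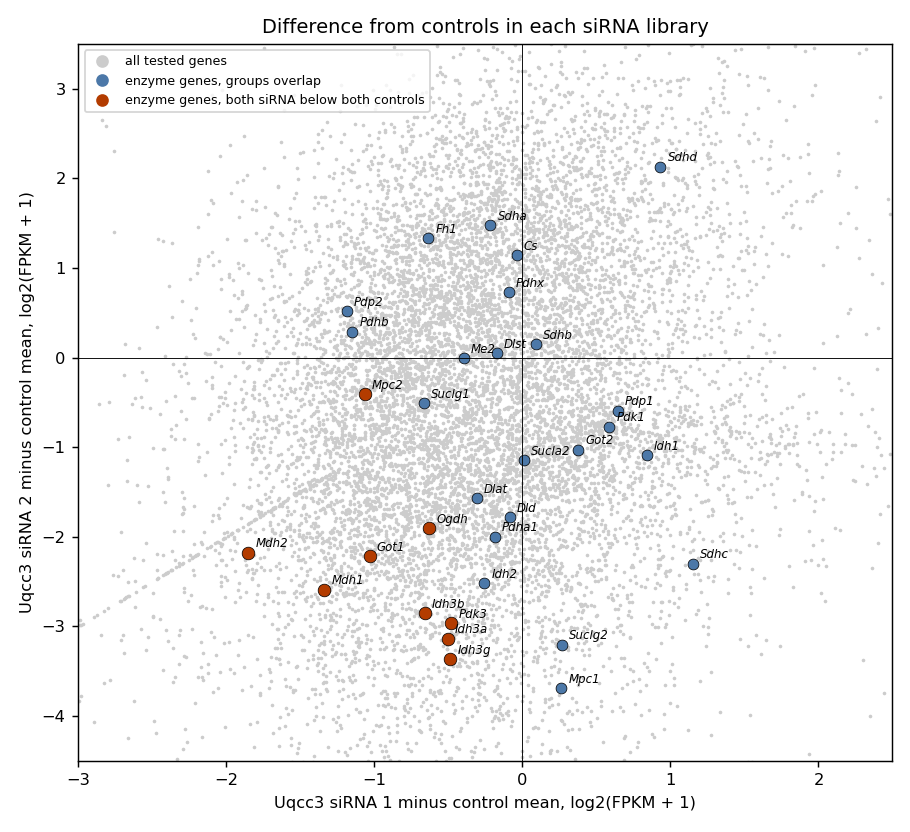
Difference of each siRNA library from the control mean in log2(FPKM + 1), siRNA replicate 1 on the horizontal and siRNA replicate 2 on the vertical axis; grey points are all tested genes (424 of 12390 lie outside the axes), coloured points the 32 enzyme genes. Mdh2, Mdh1 and Got1 lie low on both axes, whereas Idh3a, Idh3g and Pdk3 lie near -0.5 on the horizontal and near -3 on the vertical axis.

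Scaling between libraries moved the fold changes by amounts that differed between genes. TPM, median-of-ratios, quantile and cyclic loess scaling raised the median of all genes by 0.30, 0.33, 0.40 and 0.42 on the log2 scale. Of the 32 genes, 16 had a negative and 7 a positive fold change under FPKM and all 4 of these scalings, and 9 changed sign, where the shares of all tested genes were 45.8%, 35.9% and 18.4%. Those 9 were Mpc2, Sdhc, Pdhb, Pdp2, Got2, Me2, Idh1, Pdk1 and Dlst. Both siRNA libraries lay below both controls under all 5 scalings in 4 genes (12.5%), Mdh2, Mdh1, Got1 and Idh3b, against 15.2% of all genes.

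**Figure D3:**
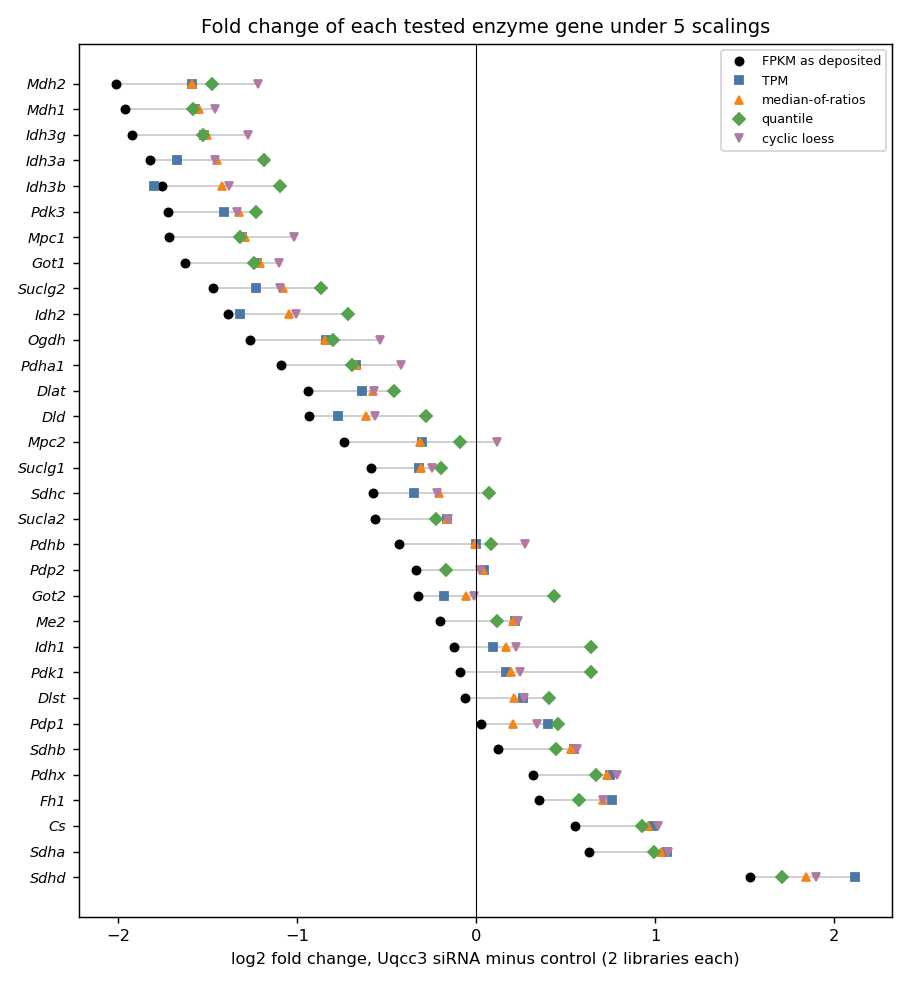
log2 fold change (Uqcc3 siRNA minus control, 2 libraries each) of the 32 tested genes on the horizontal axis under 5 scalings, ordered by the value on FPKM as deposited. Mdh2 runs from -2.02 to -1.22 and Mdh1 from -1.96 to -1.46, while genes in the middle of the order, such as Pdhb, cross zero.

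Mdh2 (ENSMUSG00000019179.10; chromosome 5, 135778480 to 135790398 in mm10, plus strand) oxidises malate to oxaloacetate in the mitochondrial matrix. It stood at 414, 330, 102 and 80.9 FPKM. Both siRNA values lay far below both controls and close to each other, at 27.3% and 21.8% of the control mean. Control libraries averaged 372 ± 59.7 FPKM (SD, n = 2) and siRNA libraries 91.2 ± 14.6 FPKM (SD, n = 2). Its log2 fold change was -2.02 (SE 0.58), with an unadjusted p of 0.00895 and an adjusted p of 0.745 in limma over all genes, where it ranked 63. Mdh2 has 7 annotated transcripts of 506 to 1606 bases. Without siRNA replicate 2 its log2 fold change was -1.85.

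Mdh1 (ENSMUSG00000020321.15; chromosome 11, 21556787 to 21572367, minus strand) is the cytosolic enzyme of the shuttle and makes malate from oxaloacetate. Its values were 67.8, 58.4, 24.3 and 9.62 FPKM. The controls agreed closely, and siRNA replicate 2 was the lower of the siRNA libraries. Control libraries averaged 63.1 ± 6.61 FPKM (SD, n = 2) and siRNA libraries 16.9 ± 10.4 FPKM (SD, n = 2). In limma its log2 fold change was -1.96 (SE 0.75, unadjusted p = 0.0309, adjusted p = 0.745). Mdh1 shares 52 bases of exon with Wdpcp on the opposite strand, and without strand information reads there cannot be assigned to either gene.

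Got1 (ENSMUSG00000025190.13; chromosome 19, 43499752 to 43524605, minus strand) is the cytosolic aspartate aminotransferase, which interconverts aspartate and oxaloacetate. It stood at 59.9, 65.7, 30.2 and 12.7 FPKM. Again no siRNA value reached the controls. Its log2 fold change was -1.63 (SE 0.73, limma unadjusted p = 0.0569, adjusted p = 0.745). The mitochondrial partner Got2 was far less abundant, at 2.10, 1.61, 2.69 and 0.396 FPKM, and its groups overlapped. Got1 made up 91.8% to 97.6% of the summed FPKM of both aminotransferases in the 4 libraries. Got2 shares 434 bases of exon with Gm45760 on the opposite strand and has a named pseudogene, so its values are uncertain.

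The authors' bounds, which cover the error of estimation within a library, were narrow for these genes. For Mdh2 they ran from 316 to 344 FPKM in the lower control and from 94.5 to 109 FPKM in the higher siRNA library. Over the 35 genes, the upper bound of both siRNA libraries lay below the lower bound of both controls in 7: Mpc2, Pdk3, Idh3a, Idh3g, Mdh2, Mdh1 and Got1. That is 21.9% of the 32 tested, against 17.2% of all tested genes with 1 row per table. In siRNA replicate 1 taken by itself this held for 10 genes, against 29.2% of all genes, and in siRNA replicate 2 for 18 (56.2%), against 40.1%.

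**Figure D4:**
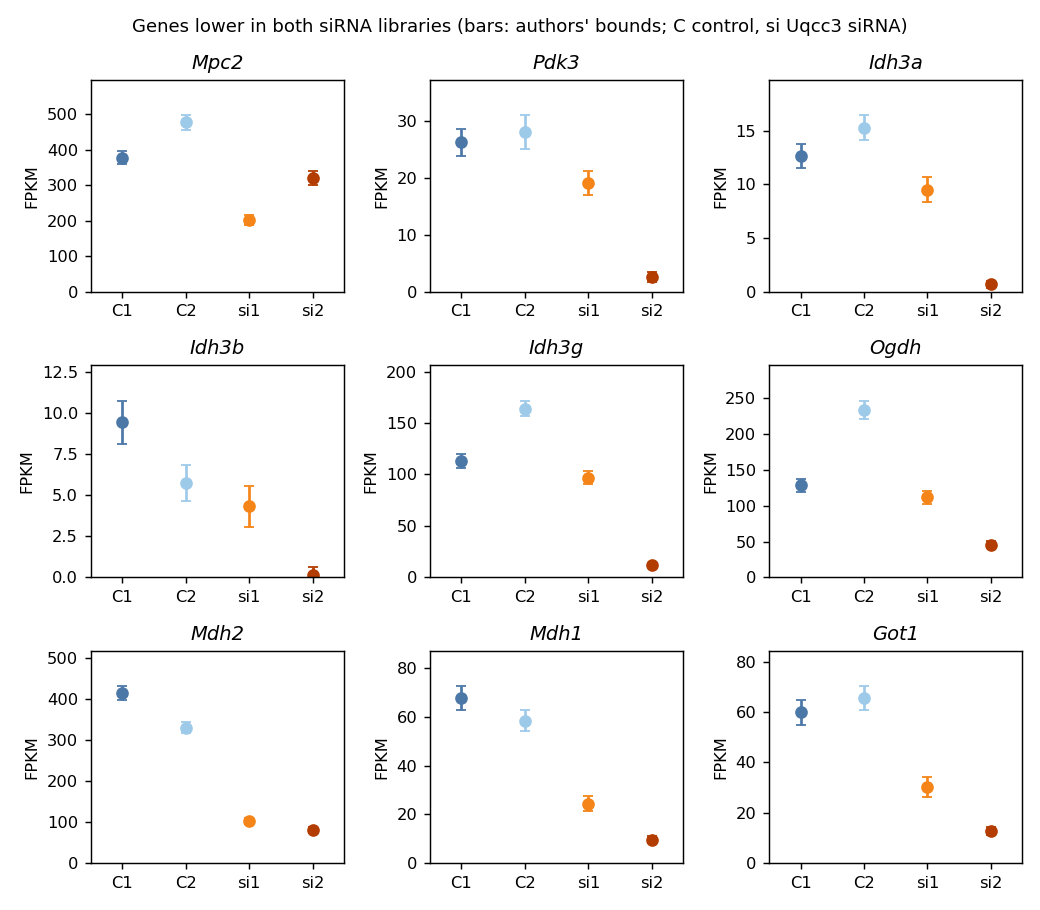
FPKM with the authors' lower and upper bounds (bars) in each library for the 9 genes whose siRNA values both lay below both controls; C1 and C2 are controls, si1 and si2 Uqcc3 siRNA libraries. Mdh2, Mdh1 and Got1 are already low in si1, while Idh3a, Idh3b, Idh3g, Pdk3 and Ogdh are far lower in si2 than in si1 and Mpc2 is lowest in si1.

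The promoters of Mdh2, Mdh1 and Got1, the genes with the 3 smallest unadjusted p of the pathway, are shown so that the sequence around a RefSeq start site of each can be compared. Each is the 300-base RefSeq window around a start site, ending 50 bases past it, in GRCm38.p6, the build of the files. Capitals mark matches, on either strand, to the motifs searched, which here were CCAAT, bound by NFY, and CCCGCCC, bound by SP factors. The windows are chr5:135778399-135778698 on the plus strand for Mdh2, chr11:21571885-21572184 on the minus strand for Mdh1 and chr19:43524556-43524855 on the minus strand for Got1.
Mdh2: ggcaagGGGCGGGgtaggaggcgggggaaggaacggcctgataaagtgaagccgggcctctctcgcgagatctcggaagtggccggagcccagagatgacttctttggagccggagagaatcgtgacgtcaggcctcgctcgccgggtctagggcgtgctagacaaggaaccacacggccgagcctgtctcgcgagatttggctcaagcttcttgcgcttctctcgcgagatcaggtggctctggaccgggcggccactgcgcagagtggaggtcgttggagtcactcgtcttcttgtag
Mdh1: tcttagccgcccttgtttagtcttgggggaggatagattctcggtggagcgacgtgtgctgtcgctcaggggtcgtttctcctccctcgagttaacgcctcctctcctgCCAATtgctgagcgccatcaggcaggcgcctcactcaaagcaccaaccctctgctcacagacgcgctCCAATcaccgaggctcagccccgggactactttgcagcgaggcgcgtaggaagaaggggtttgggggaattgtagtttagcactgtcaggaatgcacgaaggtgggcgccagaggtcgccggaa
Got1: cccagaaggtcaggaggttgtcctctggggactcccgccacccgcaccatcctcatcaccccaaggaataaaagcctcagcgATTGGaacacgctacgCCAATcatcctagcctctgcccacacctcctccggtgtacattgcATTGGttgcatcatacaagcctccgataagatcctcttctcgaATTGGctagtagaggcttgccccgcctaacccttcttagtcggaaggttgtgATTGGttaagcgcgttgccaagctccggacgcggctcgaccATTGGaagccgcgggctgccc
The Mdh1 window lies wholly inside the Mdh1 gene span given above, and most of the Mdh2 window lies inside the Mdh2 span. Their RefSeq start sites thus lie downstream of the first base of those spans. The 3 windows differ. Got1 holds 6 matches to CCAAT, Mdh1 holds 2, and Mdh2 holds 0 and carries 1 match to CCCGCCC.

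The promoter table held 31 of the 35 genes, several with more than 1 start site. CCAAT was found in a window of 21 of the 31 genes, against 41.1% of all genes in the table. By window, it was in 27 of 41 (65.9%), against 37.4% of all windows and 38.2% of those of protein-coding genes. CCCGCCC was in 19 of 41 windows (46.3%), against 25.6% of all and 33.9% of coding ones. The windows of Ogdh overlap each other, so windows are not independent. The NRF1 core GCGCATGC was found in 3 of 41 windows (7.32%), against 2.71% of all windows. By gene, it was in 2 of 31, Ogdh and Sdhb, against 3.05% of all genes. The ERR element TCAAGGTCA was found in 1 of 41 windows (2.44%), that of Sdhd, against 0.423% of all windows. CCGGAAGT, bound by ETS factors, was likewise in 1 window, of Dlst, against 3.89%, and TATAAA in 1, of Got2, against 13.6%. A match is a run of letters, not a bound site. Genes with both siRNA values below both controls, such as Mdh1 and Got1, and genes without, such as Cs, Sdha and Sdhb, both included windows with CCAAT.

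Citrate synthase and the isocitrate dehydrogenases went different ways. Cs, which joins acetyl-CoA to oxaloacetate, stood at 23.7, 18.6, 20.4 and 47.5 FPKM, so siRNA replicate 1 lay between the controls and siRNA replicate 2 at 225% of their mean. The ratio of Mdh2 to Cs within a library, which a common factor for all genes does not alter, was 17.5 and 17.7 in controls and 4.98 and 1.702 with siRNA. With 2 libraries against 2, an exact two-sided permutation test cannot give a p below 0.333, so such ratios and shares are descriptions.

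Idh3a, Idh3b and Idh3g encode the subunits of the NAD-dependent enzyme that makes 2-oxoglutarate and NADH in the cycle. Idh3a, for the catalytic subunit (chromosome 9, 54586511 to 54604661), stood at 12.6, 15.3, 9.51 and 0.697 FPKM. Idh3b (chromosome 2, 130279309 to 130284547) stood at 9.41, 5.75, 4.31 and 0.160 FPKM. Its bounds in siRNA replicate 1 (3.07 to 5.545 FPKM) overlapped those of control replicate 2 (4.64 to 6.86). In siRNA replicate 2 its lower bound was 0. Idh3g (chromosome X, 73778963 to 73786897) stood at 113, 164, 96.9 and 12.3 FPKM. All 3 were lower than both controls in both siRNA libraries, modestly in siRNA replicate 1, at 56.8% to 70.0% of the control mean, and strongly in siRNA replicate 2, at 2.11% to 8.87%. Their log2 fold changes in limma were -1.82 (SE 1.13, unadjusted p = 0.146), -1.76 (SE 1.10, unadjusted p = 0.151) and -1.93 (SE 0.96, unadjusted p = 0.0807), with adjusted p of 0.748, 0.750 and 0.745. Without siRNA replicate 2, that of Idh3g was -0.49. Idh3g made up 83.7% to 93.5% of the summed FPKM of the 3 subunits in every library. Idh3g has 9 annotated transcripts of 395 to 2080 bases, and an FPKM value summed over transcripts of unequal length need not follow the amount of the full-length mRNA.

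Idh1 and Idh2 encode the NADP-dependent enzymes of the cytosol and the mitochondrion. Idh1 stood at 1.81, 3.25, 5.18 and 0.620 FPKM and Idh2 at 8.56, 5.64, 5.66 and 0.388 FPKM. Both were lowest in siRNA replicate 2, and for both siRNA replicate 1 lay at or above a control. Idh2 was the more abundant of the pair in the controls, with 82.6% and 63.5% of their sum, and in siRNA replicate 1 with 52.2%, but not in siRNA replicate 2 with 38.5%.

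The pyruvate carrier subunits parted between the siRNA libraries. Mpc1 (chromosome 17, 8282904 to 8297661) stood at 159, 169, 197 and 11.7 FPKM, so siRNA replicate 1 was above both controls and siRNA replicate 2 at 7.16% of their mean. Mpc2 (chromosome 1, 165460637 to 165481214) stood at 378, 477, 202 and 319 FPKM, lower than both controls in both siRNA libraries on FPKM and lowest in siRNA replicate 1; its sign differed between scalings. The carrier is a heterodimer of these subunits. Mpc1 made up 29.6% and 26.2% of their summed FPKM in controls, then 49.3% and 3.55% in the siRNA libraries. The log2 fold change of Mpc1 in limma was -1.72 (SE 1.17, unadjusted p = 0.180, adjusted p = 0.759), and without siRNA replicate 2 it was 0.26. Mpc1 shares 480 bases of exon with 4930506C21Rik on the opposite strand and has a named pseudogene, so its values are uncertain.

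Among the subunits of the pyruvate dehydrogenase complex, 0 of 5 were lower than both controls in both siRNA libraries, against 30.0% of all tested genes. With only 5 genes, no difference from that share can be read. Pdha1, the catalytic E1 alpha subunit (chromosome X, 160122209 to 160138413), stood at 63.2, 210, 101 and 28.1 FPKM. Its controls lay far apart, and siRNA replicate 1 lay between them. Its log2 fold change in limma was -1.09 (SE 0.87, unadjusted p = 0.247, adjusted p = 0.786), and 603 bases of its exons overlap Map3k15 on the opposite strand. Pdhb, the E1 beta subunit, stood at 111, 107, 48.6 and 133 FPKM, low in siRNA replicate 1 and high in siRNA replicate 2. Dlat, the E2 acetyltransferase, stood at 5.16, 12.5, 6.35 and 2.07 FPKM, and Dld, the E3 dehydrogenase shared with other complexes, at 2.84, 7.25, 4.31 and 0.638 FPKM. Both followed Pdha1 in having the higher value in control replicate 2 and the lowest in siRNA replicate 2. Pdhx, which anchors E3 to the core, stood at 28.2, 18.9, 21.6 and 39.0 FPKM, highest in siRNA replicate 2.

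The kinases and phosphatases that switch the complex off and on were mostly scarce. Pdk3 (chromosome X, 93764607 to 93832201) was the main kinase transcript, at 26.2, 28.0, 19.1 and 2.59 FPKM, lower than both controls in both siRNA libraries. Its log2 fold change in limma was -1.72 (SE 1.00, unadjusted p = 0.124, adjusted p = 0.745). Pdk1 stood at 2.09, 2.15, 3.69 and 0.829 FPKM, Pdk2 at 0.214, 0.937, 0 and 4.34 FPKM, and Pdk4 was listed at 0 in all 4 libraries. Pdk3 made up 91.9% and 90.1% of summed kinase FPKM in the controls, then 83.8% and 33.4% in the siRNA libraries, and in the last of these Pdk2 held 55.9%. Of the phosphatases, Pdp2 stood at 12.0, 6.12, 3.23 and 12.8 FPKM and Pdp1 at 0, 5.57, 3.01 and 0.6996 FPKM. Neither pattern separated the groups.

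**Figure D5:**
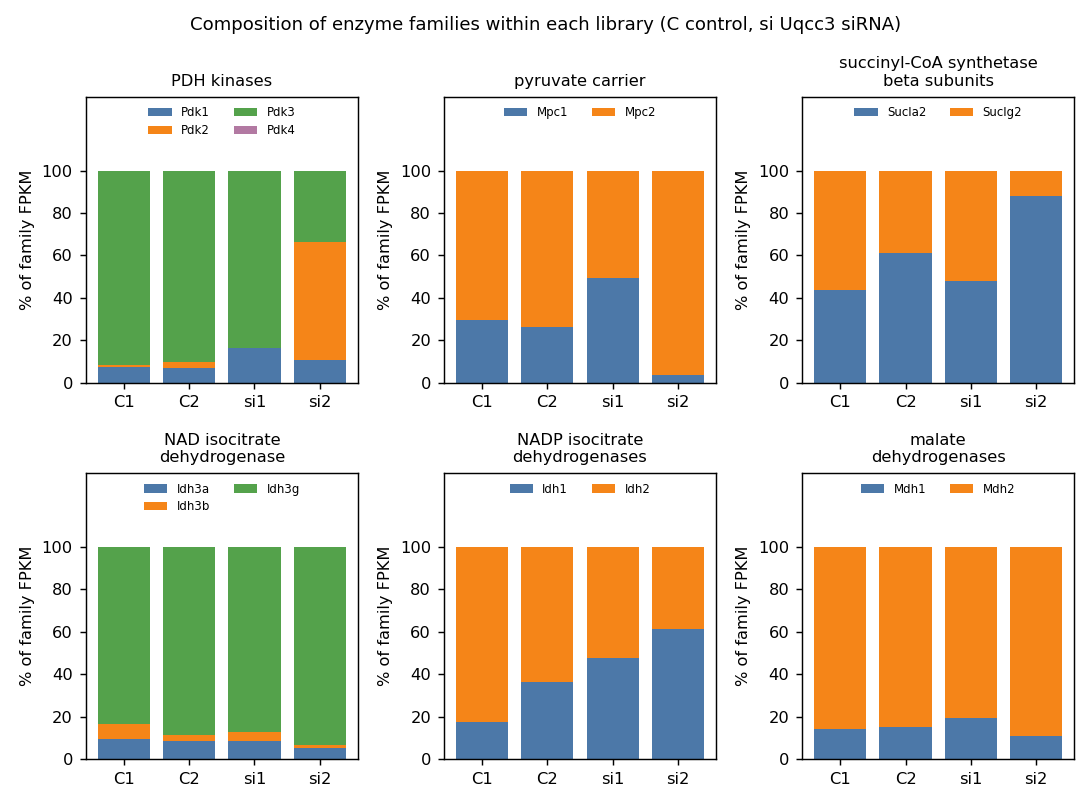
Share of each gene in the summed FPKM of its family within a library, as stacked bars in percent, for 6 families; C1 and C2 are controls, si1 and si2 Uqcc3 siRNA libraries. Pdk3 fills most of the kinase bar except in si2, Idh3g fills most of the NAD isocitrate dehydrogenase bar in every library, and the malate dehydrogenase bar stays between 80.7% and 89.4% Mdh2.

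The enzymes that refill or drain the cycle gave no separation. Me2, the mitochondrial NAD-dependent malic enzyme, stood at 26.6, 20.7, 17.6 and 23.3 FPKM, within a narrow range. Pcx, pyruvate carboxylase, stood at 0.0417, 0.0732, 0.119 and 0 FPKM and was the lowest of the 35 genes that were not listed at 0 throughout.

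Oxoglutarate dehydrogenase showed unequal subunits. Ogdh, the E1 subunit (chromosome 11, 6291633 to 6356642), stood at 128, 234, 112 and 45.5 FPKM, lower than both controls in both siRNA libraries. Its log2 fold change in limma was -1.27 (SE 0.70, unadjusted p = 0.111, adjusted p = 0.745), and the authors' bounds of siRNA replicate 1 (103 to 121 FPKM) overlapped those of control replicate 1 (119.8 to 137). Dlst, the E2 subunit of the same complex, stood at 1.95, 1.87, 1.58 and 2.01 FPKM, nearly level. The ratio of Ogdh to Dlst was 65.7, 125, 70.8 and 22.7. Ogdh has 7 annotated transcripts of 621 to 4127 bases and Dlst has 13, so part of this gap may lie in how fragments were shared among transcripts, which was not tested.

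Succinyl-CoA synthetase makes ATP or GTP depending on its beta subunit. The shared alpha subunit gene Suclg1 stood at 1.65, 4.61, 1.43 and 1.71 FPKM. Sucla2, for the ATP-forming enzyme, stood at 17.7, 27.1, 22.1 and 9.37 FPKM, and Suclg2, for the GTP-forming enzyme, at 22.8, 17.2, 24.1 and 1.25 FPKM. In siRNA replicate 1 Sucla2 lay between the controls, Suclg1 slightly under both and Suclg2 slightly above both. In siRNA replicate 2 Suclg2 stood at 6.27% of the control mean, and its share of both beta subunits was 11.8%, against 38.9% to 56.3% in the other libraries.

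Succinate dehydrogenase is complex II of the respiratory chain and feeds ubiquinone, the substrate of complex III. Sdha, the flavoprotein, stood at 14.3, 21.9, 15.1 and 51.1 FPKM, and Sdhb, the iron-sulfur subunit, at 24.4, 19.1, 23.1 and 24.1 FPKM. Sdhb was the steadiest of the 4 on FPKM, with both siRNA values between the controls. Under each of the 4 other scalings both its siRNA values lay above both controls. The membrane anchors scattered widely. Sdhc stood at 14.9, 4.83, 20.4 and 0.954 FPKM, and Sdhd at 10.5, 0.261, 6.25 and 15.6 FPKM. For Sdhd the controls alone lay far apart, so no difference between groups can be read from it. Of the 32 tested genes, 7 (21.9%) had controls at least 1 apart on the log2 scale, against 29.8% of all genes.

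Fh1, fumarase, stood at 8.14, 4.05, 3.37 and 16.1 FPKM, so that siRNA replicate 1 was under both controls while siRNA replicate 2 exceeded them. Sdha, Sdhd, Fh1, Cs, Pdhx, Pdhb and Pdk2 were the 7 genes whose lower bound in siRNA replicate 2 lay above the upper bounds of both controls, and 0 genes did so in siRNA replicate 1. Without the untested Pdk2 these were 6 of 32 (18.8%) in siRNA replicate 2, against 24.6% of all tested genes, and 0 in siRNA replicate 1, against 7.46%.

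Other genes of the pathway were taken from a fixed list of 49, with assembly and lipoylation factors, carriers, side reactions and germline isozymes. Of these, 31 were tested and 0 passed in limma, with 0 at an unadjusted p under 0.05. Of the 31, 9 (29.0%) had both siRNA values below both controls and 6 (19.4%) had both above, beside the 30.0% and 8.60% of all genes. Their median log2 difference was -0.26. The 4 with the smallest unadjusted p were Sdhaf1, Gls2, Me3 and Acss2. Sdhaf1, an assembly factor of succinate dehydrogenase, stood at 1.04 and 2.76 FPKM in controls and was listed at 0 in both siRNA libraries, but 1733 bases of its exon overlap E130208F15Rik on the opposite strand. Acss2, the cytosolic acetyl-CoA synthetase, stood at 4.05, 4.86, 1.68 and 0.104 FPKM. Me3, a mitochondrial NADP-dependent malic enzyme, was higher with siRNA, at 0.505, 0.0931, 1.79 and 5.07 FPKM. Gls2, a glutaminase, stood at 7.28, 0, 14.04 and 17.0 FPKM. Exons of Acss2, Me3 and Gls2 also overlap genes on the opposite strand, by at most 395, 569 and 97 bases with any 1 gene.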

How the data were processed

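Each library has its own deposited file of FPKM, every gene having a lower and upper bound, as the authors made it, per the file headers. Tools named in the submitters' processing notes are Cuffdiff 2.2.1, Cufflinks 2.2.1, SAMtools 1.7, STAR 2.7.3a and Trim Galore 0.6.5, with mm10 as build. No annotation release was found in the labels. Per the labels' protocols, cDNA was primed with oligo(dT) and amplified for 18 cycles, with 15 further cycles in library preparation, so fragments are not independent molecules.

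Rows of 1 gene identifier were summed, and 2 genes with a failed estimate were left out. The test was limma 3.58.1 in R 4.3.3, two-sided, on log2(FPKM + 1) of genes that reached 1 FPKM in 2 or more libraries, with a trend of variance on abundance and Benjamini-Hochberg adjustment over all 12390 genes at 0.05. On this scale the fold change of a scarce gene is understated. The script was tested on simulated data. Alternatives were another pseudocount, other filters, 4 other scalings, no trend and leaving out each library. Depth was estimated from the authors' bounds in 2 ways and is uncertain. Gene models, overlaps and transcript numbers came from GENCODE M21, which held 99.1% of the identifiers, and coordinates from the files. Replicates were numbered in accession order.

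The 35 genes, the lists and the tests were chosen with earlier results of these data known. Every 1 of the 35 is named. Fold changes and p-values are given for the 10 with the smallest unadjusted p, and of the other pathway genes the 4 with the smallest unadjusted p are named.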

Additional observations from a re-analysis of the deposited data

How the results depend on the processing

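The other settings were another pseudocount, other filters on low values, no abundance trend and 4 other scalings. Under all of them 0 genes passed in limma, over all genes and among the 35. At an unadjusted p under 0.05 there were 738 genes, and 460 to 844 under the settings that kept all 4 libraries. The number of the 35 below both controls in both siRNA libraries, 9 on FPKM, was 4 under median-of-ratios, quantile and cyclic loess scaling. The share of all tested genes below was 30.0% on FPKM, and 19.1%, 18.7% and 18.5% under these. The number above both, 0 on FPKM, was 1 under TPM, 4 under median-of-ratios, 5 under quantile and 4 under cyclic loess scaling. Of all tested genes, 8.60% lay above both on FPKM, and 13.2%, 16.8%, 16.5% and 17.6% under these scalings in turn. Leaving out 1 library at a time gave 0 to 1477 passing genes and 0 to 8 among the 35, with 12 to 20 below and 2 to 8 above all remaining controls. The lone library of a group is then assumed to vary like the other group. Of all tested genes, 41.9% to 50.5% lay below and 16.4% to 32.0% above all remaining controls in these fits. The median of the 32 minus that of all genes, -0.19, ran from -0.64 to 0.073 and turned positive without control replicate 2 (0.073) or siRNA replicate 2 (0.066). The log2 fold change of Mpc1 ran from -3.69 to 0.26, its value without siRNA replicate 2. The causes were not tested. No paired analysis was possible because the labels carry no replicate numbers. With 2 libraries per group and unequal detection, low genes such as Pdk2, Pcx and Sdhd are the least certain.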

Other observations

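Of the 49 other pathway genes, 7 were listed at 0 in all 4 libraries, as was Pdk4 among the 35. Among the 7 were Pck1, the cytosolic phosphoenolpyruvate carboxykinase, Pdha2, the testis form of E1 alpha, and Nnt, the mitochondrial transhydrogenase.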
